A study of Mus musculus with 3 samples.

Results

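Insulin-like growth factor (IGF) signalling genes were followed in single cells from a mouse stem cell model of heart formation. The set comprised 9 genes chosen by name: the ligand Igf1, the receptors Igf1r and Igf2r, and the binding proteins Igfbp2, Igfbp3, Igfbp4, Igfbp5, Igfbp6 and Igfbp7. All 9 were listed in each of the 3 count tables, among 22439 genes for mESC, 23371 for CPCC and 24229 for CB, and 18969 genes were listed in all of them. The cells were male F1 cells of a C57BL/6J by CAST/EiJ cross, and all 3 cultures shared this genotype. The first culture was undifferentiated mouse embryonic stem cells (mESC, 215 cells), kept with LIF and a pair of kinase inhibitors. The second was cardiac precursor cell cultures (CPCC, 175 cells), expanded with EGF and Fgf2 after dissociation of embryoid bodies. The third was beating cardiac bodies (CB, 232 cells), grown from stem cell aggregates in medium with ascorbic acid. CPCC and CB were separate arms of the differentiation, so CB over CPCC compares cultures and is not a step from one to the other. Each culture was 1 sample, so no test between cultures was possible, cells were not treated as replicates, and no p-value is given. By the methods and the mESC label a culture may hold cells of 3 clones, each from its own blastocyst, but no column names a clone. The columns name sequencing pools, of which there were 3 for mESC, 2 for CPCC and 3 for CB. Which clone or dish a pool holds is not stated, and pools are shown only to describe the spread within a culture.

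IGF1 and IGF2 are secreted growth factors that signal through the receptor tyrosine kinase IGF1R, mainly to the PI3K and AKT kinases and to the MAP kinase branch. IGF2R, the cation-independent mannose 6-phosphate receptor, binds IGF2 without such signalling and carries it to lysosomes. The IGF-binding proteins are secreted carriers that hold IGFs in the extracellular space and are cut by proteases that release the ligand, and Igfbp7 is a more distant relative that binds IGFs weakly. In the heart, IGF signalling is known for its role in growth and in exchange between muscle and connective tissue cells.

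The median depth was 1528320 counts per cell in mESC, 1437410 in CPCC and 1397870 in CB, and 8, 1 and 9 cells had under 10000 counts. No column name was shared between tables, and no columns within a table were identical. The labels were checked against marker lists. All 10 pluripotency markers were found in most mESC cells, 9 of 10 in most CPCC cells and 1 of the 7 listed in most CB cells. Together these genes reached 10524 CPM (counts scaled to a fixed total per culture) in mESC, 3394 in CPCC and 169 in CB. CB cells carry the label of mature cardiac cells, yet none of the 10 cardiomyocyte markers was found in most of them, and the summed level of that list was 487 CPM against 161 in CPCC and 29.9 in mESC. The 10 fibroblast markers summed to 9949 CPM in CB, with 7 of them in most cells, against 1340 CPM in CPCC and 480 in mESC. Fewer cells of a type and less RNA per cell cannot be told apart in the summed values below. Pools and cell clusters were not spread evenly: CB pool 2 held 58 cells of CB cluster 0 and all 20 of cluster 4, but none of clusters 1, 2 and 3. Summed levels of the members are therefore given by pool where they carry a result, and the part of the pools was not tested.

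The start sites of members that differed between cultures are shown first. Igf1r, Igfbp3, Igfbp4, Igfbp5 and Igfbp7 had higher levels in CB than in mESC, and Igf2r had a lower one. Igf1 was also higher, but all 120 bases before its RefSeq start lie inside the annotated gene and are not printed. Of the bases shown for Igfbp5, the 19 nearest its start lie inside that gene. The 120 bases before the RefSeq start (GRCm38.p6, 5′ to 3′ on the strand of the gene) are printed with 4 motifs in capitals, each searched on both strands: the TATA box TATAAA, its variants written as TATATA and as TATTTAA, and the GC box core, written as GGGCGG.
Igfbp4, chr11:99041124-99041243, plus strand: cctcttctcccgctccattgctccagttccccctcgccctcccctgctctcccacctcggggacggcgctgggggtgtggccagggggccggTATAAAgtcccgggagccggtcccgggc
Igfbp3, chr11:7213924-7214043, minus strand: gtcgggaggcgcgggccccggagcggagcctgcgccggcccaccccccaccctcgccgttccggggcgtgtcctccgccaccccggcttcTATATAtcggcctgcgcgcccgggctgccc
Igfbp5, chr1:72874866-72874985, minus strand: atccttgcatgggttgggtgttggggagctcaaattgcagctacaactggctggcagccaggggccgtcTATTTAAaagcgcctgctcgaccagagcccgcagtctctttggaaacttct
Igfbp7, chr5:77408046-77408165, minus strand: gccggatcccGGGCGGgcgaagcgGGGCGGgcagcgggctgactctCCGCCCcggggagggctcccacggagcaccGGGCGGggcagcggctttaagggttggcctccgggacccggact
Igf1r, chr7:67952137-67952256, plus strand: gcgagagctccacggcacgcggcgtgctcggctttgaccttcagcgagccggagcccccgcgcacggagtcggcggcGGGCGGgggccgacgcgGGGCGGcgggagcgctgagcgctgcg
Igf2r, chr17:12769707-12769826, minus strand: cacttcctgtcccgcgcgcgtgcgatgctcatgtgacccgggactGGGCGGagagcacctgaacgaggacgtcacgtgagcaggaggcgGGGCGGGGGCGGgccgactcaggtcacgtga
The TATA-like letters began 28 bases before the start of Igfbp4 (TATAAA), 30 before that of Igfbp3 (TATATA) and 51 before that of Igfbp5 (TATTTAA). Igf1r, Igfbp7 and Igf2r held GGGCGG only, and Igf1 held none of the 4 motifs in the 250 bases before its start. In the 250 bases before the starts of all 32851 promoters, TATAAA was found in 12.4%, TATATA in 5.25%, TATTTAA in 4.18% and GGGCGG in 32.7%. A match describes these letters only.

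In the annotation of the same build (GRCm38, GENCODE), Igfbp2 and Igfbp5 are neighbours on chromosome 1 with 5457 bases between them: Igfbp2 at chr1:72824503-72852474 on the plus strand and Igfbp5 at chr1:72857932-72874884 on the minus strand. Igfbp3 (chr11:7206086-7213923) and Igfbp4 (chr11:99041244-99054392) lie far apart on chromosome 11. Igf1 (chr10:87858265-87937042) overlaps the antisense gene Igf1os, and Igfbp7 (chr5:77349240-77408041) overlaps Polr2b and an antisense gene. Igf2r (chr17:12682406-12769664, minus strand) shares 28354 bases with Airn, an antisense noncoding RNA on the plus strand. The use of strand in counting was not stated, so reads from these overlapping genes cannot be told apart.

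The first question was whether the IGF members differed in level between stem cells, precursor cultures and cardiac bodies. A gene was called higher or lower where the log2 ratio of summed CPM, with 1 CPM added, was past 1 and the pools of both cultures lay apart, and only genes with at least 5 CPM in either culture were considered. In CPCC over mESC, 4 members were called higher (Igf1, Igfbp4, Igfbp5, Igfbp7) and 1 lower (Igf2r), against 14.4% higher and 7.21% lower of all 11849 genes considered. In CB over mESC, 6 members were called higher (Igf1, Igf1r, Igfbp3, Igfbp4, Igfbp5, Igfbp7) and 1 lower (Igf2r), against 25.3% and 14.4% of 12619 genes. In CB over CPCC, 4 were called higher (Igf1r, Igfbp3, Igfbp4, Igfbp5) and 0 lower, against 12.8% and 5.96% of 12963 genes. The members called higher thus made up a larger share than in all genes in the 3 pairs, whereas 1 lower member of 8 is near the share of all genes. The members and the call rule were chosen with earlier results of these data known, so the larger share only describes these genes. Igfbp6 stayed under 5 CPM in the 3 cultures, so 8 of the 9 members were considered. The median log2 ratio of these 8 members was 1.92, 4.41 and 1.79 in these pairs, and that of all genes considered was 0.0031, 0.27 and 0.18. The 3 pairs share samples and are not independent of each other. The background median in CB over mESC moved from 0.27 to 0.08 with TMM factors and to 0.02 with DESeq2 size factors.

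**Figure D1:**
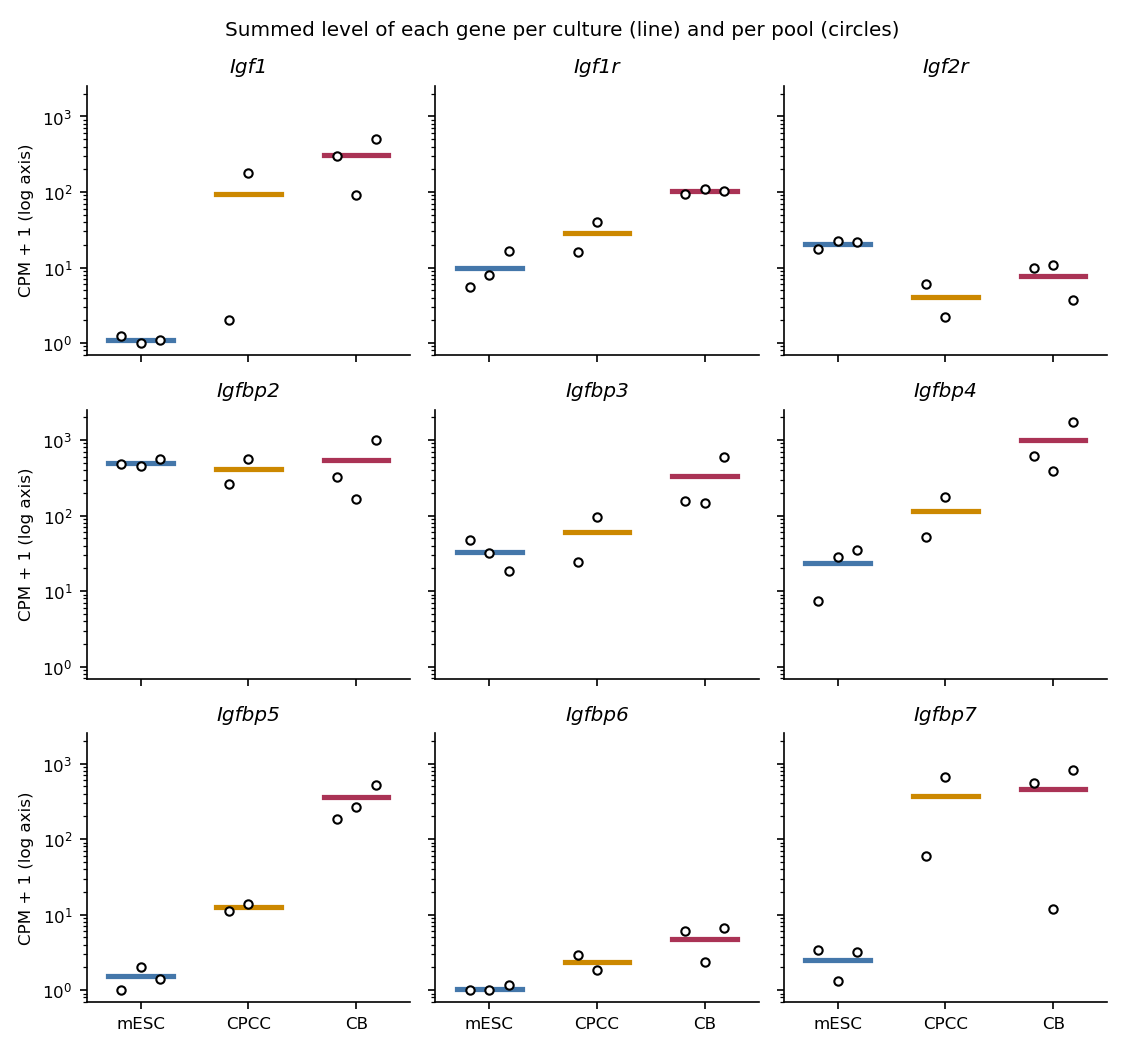
Summed level of each of the 9 genes, as CPM + 1 on a log axis, in mESC, CPCC and CB. Lines give the culture and circles its pools. Igfbp4 and Igfbp5 are higher in CPCC than in mESC and highest in CB, with no overlap of pools, whereas the pools of Igf1 and Igfbp7 lie far apart within CPCC and CB.

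The ligand Igf1 was near absent from stem cells and high in cardiac bodies. In mESC it had 35 counts in all, found in 2 of 215 cells, or 0.0997 CPM (95% Poisson interval 0.0694 to 0.139). Intervals here take reads or cells as independent draws and do not cover differences between pools. Of these 35 Igf1 counts, 71.4% came from 1 cell. In CPCC its level was 92.3 CPM, but the pools held 1.04 and 178 CPM. In CB it was 304 CPM, with 303, 89.3 and 502 CPM in the pools. All CPCC and CB pools were above all mESC pools, while CPCC and CB pools overlapped. Over mESC, the log2 ratio was 6.41 for CPCC and 8.12 for CB. Without CPCC pool 2 the ratio over mESC was 0.89, so the call in CPCC rested on that pool. Igf1 was found in 25.7% of CPCC cells (exact 95% interval 19.4 to 32.9), but in 5.06% of pool 1 and 42.7% of pool 2, both outside the interval. In CB it was found in 54.3% of cells (47.7 to 60.8), with 62.3%, 30.8% and 69.4% in the pools. The 10 highest CPCC cells held 77.2% of its CPCC counts.

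The main IGF receptor Igf1r was present in each culture and highest in CB. Its pools were at 4.60, 6.98 and 15.6 CPM in mESC and at 15.2 and 38.7 CPM in CPCC. In CB the pools were close together, at 91.7, 107 and 102 CPM. The CB pools stood above all other pools, whereas the highest mESC pool and the lowest CPCC pool overlapped. The log2 ratio was 3.40 for CB over mESC and 1.86 for CB over CPCC. Igf1r was found in 49.3% of mESC cells, 64.0% of CPCC cells and 84.5% of CB cells, and with cells thinned to 430000 counts in 42.0%, 61.1% and 82.9%.

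Igf2r, the receptor that clears IGF2, had its highest level in stem cells. Its level in mESC was 19.6 CPM, with pools at 16.7, 21.1 and 20.6. In CPCC it was 3.10 CPM (pools 5.09 and 1.23), and in CB it was 6.66 CPM (pools 8.92, 9.85 and 2.77). The mESC pools lay above all the others, and those of CPCC and CB overlapped. The log2 ratio was -2.33 for CPCC over mESC and -1.42 for CB over mESC. The latter was -0.83 with 10 CPM added in place of 1 and -0.96 without CB pool 3, and was called in neither case. Igf2r was found in 70.2% of mESC cells (63.6 to 76.3), 35.4% of CPCC cells (28.4 to 43.0) and 20.7% of CB cells (15.7 to 26.5).

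In mouse, Igf2r is imprinted in most tissues after the stem cell stage, and Airn, transcribed from the other strand on the paternal chromosome, is the RNA known for silencing it there. Airn was not a member and was looked at after its values were seen. In mESC its level was 0.93 CPM (pools 0, 0.17 and 2.91), 14.7 CPM in CPCC (10.3 and 18.8) and 40.3 CPM in CB (68.6, 33.8 and 34.1). Airn was thus lowest where Igf2r was highest, and its pools did not overlap between any of the 3. Airn was found in 3.26% of mESC, 29.1% of CPCC and 50.4% of CB cells. Between single cells no such opposition was seen in CB: Airn was found in 58.3% of the 48 cells with Igf2r and in 50.9% of the 175 without it, and Spearman's rho was 0.02 over 223 cells. In CPCC it was found in 14 of 62 cells with Igf2r and 37 of 112 without, with a rho of -0.13 over 174 cells. Reads of the maternal and paternal copies were counted together.

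**Figure D2:**
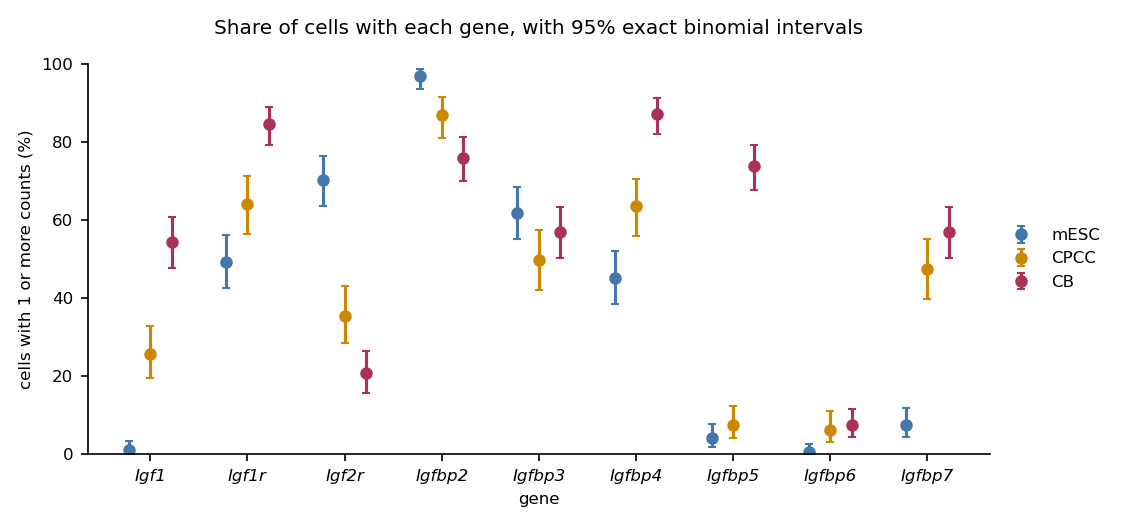
Share of cells with 1 or more counts of each gene (percent) in mESC, CPCC and CB, with exact 95% binomial intervals. Igf2r goes down from 70.2% to 20.7% and Igfbp5 goes from 7.43% in CPCC to 73.7% in CB.

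Igfbp2 was the binding protein of the stem cells and kept nearly the same summed level throughout. It had 495 CPM in mESC, 414 in CPCC and 544 in CB. Its mESC pools were close, at 481, 457 and 560 CPM. In CPCC they were at 262 and 557 CPM and in CB at 325, 163 and 989 CPM, so the cultures overlapped and no ratio was called. The log2 ratio was -0.26 for CPCC over mESC and 0.14 for CB over mESC, the latter -1.20 without CB pool 3, when Igfbp2 was called lower. Behind the similar totals the distribution over cells widened. The share of cells with Igfbp2 went from 96.7% in mESC to 86.9% in CPCC and 75.9% in CB, and the median cell went from 464 to 241 to 96.9 CPM. The 10 highest cells held 17.8% of Igfbp2 counts in mESC and 46.3% in CB, where the highest cell reached 12026 CPM.

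Igfbp4 and Igfbp5 had the largest ratios of the binding proteins between cardiac bodies and precursors. Igfbp4, which inhibits IGF action and is released from its ligand by the protease Pappa, was at 6.41, 27.0 and 33.5 CPM in the mESC pools, at 50.9 and 175 in the CPCC pools, and at 619, 389 and 1742 in the CB pools. The pools of the 3 cultures did not overlap at all. The log2 ratio was 2.31 for CPCC over mESC and 5.43 for CB over mESC, and the share of cells was 45.1%, 63.4% and 87.1% in mESC, CPCC and CB. Igfbp5, which binds strongly to the extracellular matrix, was at 0.53 CPM in mESC, where 1 cell held 64.0% of its counts. In CPCC its pools were at 10.1 and 12.8 CPM, but only 13 of 175 cells had it and 1 of them held 41.0% of the counts. In CB its pools were at 185, 268 and 515 CPM and 73.7% of cells (67.5 to 79.3) had it. The log2 ratio over CPCC was 4.84, at percentile 99.6 of all genes considered. The share of cells with Igfbp5 was thus low in precursors and high in cardiac bodies. Igfbp4 was already in most CPCC cells at 1 or more counts, but in 42.9% of CPCC cells at 10 or more.

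Igfbp3, the main IGF carrier of serum, was called higher in CB but not in CPCC. Its pools were at 46.4, 30.6 and 17.4 CPM in mESC and at 23.0 and 95.3 CPM in CPCC, which overlapped. In CB they were at 155, 144 and 595 CPM, above all the others. The log2 ratio was 3.37 for CB over mESC and 2.47 for CB over CPCC. The share of cells with Igfbp3 did not follow the level: 61.9% of mESC, 49.7% of CPCC and 56.9% of CB cells had it. Among cells with the gene, the median level was 38.8, 42.9 and 138 CPM in the 3 cultures.

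Igfbp7, a secreted protein of vessels and connective tissue, was already high in CPCC. It had 1.51 CPM in mESC and was found there in 7.44% of cells. The CPCC pools were at 59.2 and 671 CPM, and the CB pools at 557, 10.7 and 824 CPM. All of these lay above the highest mESC pool, which was at 2.38 CPM, but the CPCC and CB pools overlapped. Over mESC, the log2 ratio was 7.23 for CPCC and 7.51 for CB. Over CPCC the CB ratio was 0.28, and it was -1.01 without CB pool 3 and 2.93 without CPCC pool 2. Within CB, pool 2 stood apart, with Igfbp7 in 14.1% of its cells against 69.6% in pool 1 and 85.9% in pool 3. Igfbp6 was found in the fewest cells, with 0.0456 CPM in mESC (1 cell), 1.38 CPM in CPCC and 3.83 CPM in CB, and it was found in 7.33% of CB cells.

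Levels of different genes were compared only per kilobase of merged exons, since the chemistry covers whole transcripts. On this scale Igfbp2 made up 94.2% of the summed binding protein level in mESC, 38.4% in CPCC and 27.5% in CB. Igfbp7 made up 0.44%, 53.2% and 35.3%. Igfbp4 made up 1.79%, 4.47% and 21.3%, and Igfbp3 3.56%, 3.31% and 10.1%. The makeup differed between pools outside mESC, where the Igfbp2 share was 93.5% to 95.2%. In CPCC, Igfbp2 made up 66.6% and Igfbp7 23.0% in pool 1, against 32.4% and 59.7% in pool 2, so their order rested on pool 2. In CB, Igfbp7 made up 53.5%, 3.20% and 36.0% in pools 1, 2 and 3, and Igfbp2 20.4%, 31.8% and 28.3%. The summed level itself was 284, 583 and 1072 CPM per kb in the 3 cultures, with CPCC pools at 213 and 930 and CB pools from 277 to 1892. Cell by cell, Igfbp2 was the highest binding protein per kilobase in 98.0% of the 205 mESC cells with any of the 6, in 64.5% of 169 CPCC cells and in 28.3% of 223 CB cells. In CB the lead was divided, with Igfbp4 first in 25.6%, Igfbp7 in 24.7%, Igfbp5 in 13.0% and Igfbp3 in 8.07% of cells.

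Single CB cells also carried more kinds of binding protein, where a gene was taken as present at 1 or more counts. Over cells with at least 10000 counts, the median number of the 6 genes per cell was 2, 3 and 4 in mESC, CPCC and CB, and 2, 2 and 4 with cells thinned to 430000 counts. In mESC 3.38% of cells had 4 or more, in CPCC 22.4% and in CB 57.0%, and in the thinned cells these were 2.59%, 17.8% and 52.4%. At equal depth CB thus stayed apart from the others in the median, while mESC and CPCC had the same one. All 223 CB cells had at least 1 of the 6. The number per cell was not counted at a higher cutoff. At 10 or more counts the share of all CB cells was lower for each gene, at 71.1% for Igfbp4 in place of 87.1%. For Igfbp3 it was 40.1% in place of 56.9%.

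**Figure D3:**
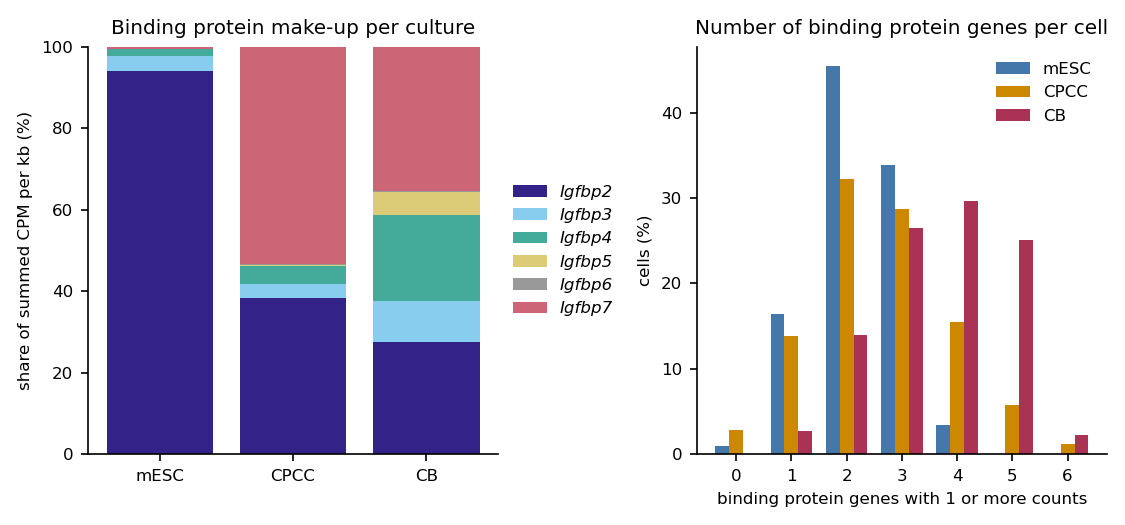
Left, share of each binding protein gene in their summed CPM per kb (percent) in mESC, CPCC and CB. Right, share of cells with at least 10000 counts (percent) by the number of binding protein genes with 1 or more counts. Igfbp2 makes up 94.2% in mESC and 27.5% in CB, and 57.0% of CB cells have 4 or more of the genes.

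Which cells held each gene was described with clusters formed within each culture, with the members and the pathway genes left out of the clustering. In CB, cluster 1 (44 cells, leading genes Col1a2, Col3a1, Lum, Mfap4 and Bgn) had 9 of 10 fibroblast markers in most cells and was fibroblast-like. Cluster 4, with 20 cells and the leading genes Plvap, Kdr, Ramp2, Mest and Vim, had all 10 endothelial markers in most cells and was endothelial-like. Cluster 2 (42 cells) had the leading genes Upk1b, Upk3bl, Wfdc2, Anxa1 and Cyp2f2, and cluster 3 (39 cells) had Col3a1, Col1a2, Dcn, Col1a1 and Lum, with Acta2 and Tagln among its top genes by fold. Cluster 0 (87 cells) had the leading genes Stmn1, Tubb5, Hmgb2, H2az1 and Hist1h2ap. Cluster 2 had 7 of 8 epithelial and 6 of 10 fibroblast markers in most cells, and cluster 3 had 9 of 10 fibroblast markers beside the smooth muscle genes, so neither was named as a cell type, nor was cluster 0. The clusters are compared with no test.

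The fibroblast-like cluster held most of the ligand and of several binding proteins. It had 22.2% of all CB counts but 66.8% of those of Igf1, 66.3% of Igfbp4, 68.1% of Igfbp7 and 61.9% of Igfbp2. Igfbp4 was at 3002 CPM in it and at 436 CPM in all other CB cells together. Igf1 was at 915 CPM in it and at 130 CPM in the others. These values came mostly from pool 3, which supplied 36 of the 44 cells. In the 8 cells of pool 1, Igfbp4 was at 577 CPM against 3187 in pool 3, Igfbp7 at 162 against 1497, and Igfbp2 at 253 against 1613. Within pool 1 the fibroblast-like cells were not the highest of the clusters: Igfbp4 was at 875 CPM in cluster 3, Igf1 at 452 CPM there against 378, and Igfbp2 at 397 and 385 CPM in clusters 0 and 2. The lead of this cluster in these genes thus rested on pool 3.

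Cluster 3 shared the high Igfbp7 of the fibroblast-like cells, at 855 CPM with Igfbp7 in 89.7% of cells. There the pools differed the other way, with Igfbp7 at 1030 CPM in the 28 cells of pool 1 and 516 CPM in the 11 cells of pool 3. Igfbp2 in this cluster was at 282 CPM in the former and 1113 CPM in the latter.

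The endothelial-like cells had the lowest Igfbp2 and Igfbp7 of the CB clusters. They had Igfbp4 at 872 CPM in 100% of cells, as the plot of single CB cells shows, and Igf1 at 323 CPM in 85.0% of cells. Cluster 3 was alike in both, with Igfbp4 at 865 CPM in 94.9% of cells and Igf1 at 358 CPM in 84.6%. In the endothelial-like cells Igfbp2 was at 10.8 CPM and Igfbp7 at 4.02 CPM, against 594 and 500 CPM in all other CB cells. Per kilobase, Igfbp4 and Igfbp3 made up 58.1% and 34.1% of their summed binding protein level, and Igfbp2 1.72%. All 20 of these cells came from pool 2, so the cell type and the pool cannot be told apart by pools. Within pool 2, the 58 cells of cluster 0 had Igfbp2 at 206 CPM, Igfbp4 at 252 CPM, Igf1 at 23.3 CPM and Igfbp7 at 12.6 CPM. Low Igfbp7 was thus found in both clusters of that pool, whereas Igfbp2, Igfbp4 and Igf1 differed between them.

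Igfbp5 and Igf1r were found in most cells of every CB cluster taken over all pools. Igfbp5 was at 294 CPM in cluster 0, 583 in cluster 1, 433 in cluster 2, 223 in cluster 3 and 104 in cluster 4, and it was found in 60.0% to 81.0% of the cells of each. Its pools differed within clusters: in cluster 1 it was at 62.3 CPM in 37.5% of the 8 cells of pool 1 and at 623 CPM in pool 3, and in cluster 3 at 118 and 425 CPM. The median cell held Igfbp5 at 160, 132, 147, 3.90 and 1.68 CPM in clusters 0 to 4, so in clusters 3 and 4 the median cell was far below the summed level. Igf1r was between 80.3 and 117 CPM in the 5 clusters and was found in 78.2% to 90.0% of cells. The receptor was thus present in every cluster, whereas the ligand was found in 84.6% to 86.4% of cells of clusters 1, 3 and 4 and in 25.3% and 38.1% of clusters 0 and 2. The share with Igf1 in cluster 0 differed by pool, at 47.8% of 23 cells in pool 1, 12.1% of 58 in pool 2 and 66.7% of 6 in pool 3, so its low value rested on pool 2. In cluster 1 it was 62.5% of the 8 cells of pool 1 and 91.7% of the 36 of pool 3.

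**Figure D4:**
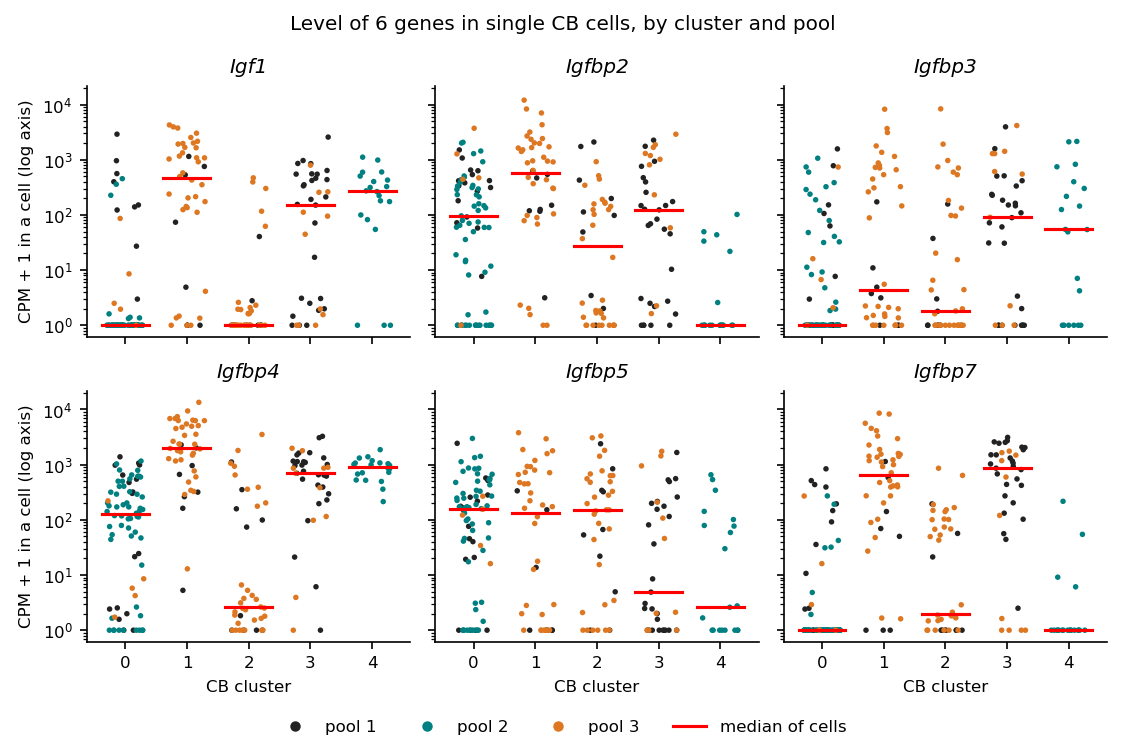
Level of 6 genes in each CB cell with at least 10000 counts, as CPM + 1 on a log axis, by cluster, with points coloured by pool and red lines at the median. Igfbp4 is high in clusters 1, 3 and 4, Igfbp7 in clusters 1 and 3, and Igfbp5 in cells of all 5 clusters.

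In CPCC, cluster 0 (62 cells) had all 10 pluripotency and 5 of 8 epithelial markers in most cells and was pluripotent-like. Cluster 2 (34 cells, leading genes Slc2a3, Tdgf1, Car4, Lefty1 and Epcam) had 8 of 10 and 6 of 8 of these and was not named. Cluster 3 (14 cells, leading genes C1qb, C1qc, Spp1, Ctsb and Fcrls) had all 8 macrophage markers in most cells and was macrophage-like. Cluster 1 (55 cells, leading genes Acta2, Tagln, Vim, Sparc and Anxa2) was not named, as it had 4 of 10 fibroblast and 4 of 6 smooth muscle markers. Cluster 4 (10 cells) was led by mitochondrial transcripts and had a median of 76817 counts.

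In the precursors several members were held unevenly by these cells. Cluster 1 held 37.1% of all CPCC counts but 96.6% of the Igfbp7, 98.4% of the Igfbp5 and 72.7% of the Igfbp4 counts. Igfbp7 was at 978 CPM and was found in 87.3% of its cells, at 188 CPM in pool 1 and 1386 CPM in pool 2. Igfbp2 was highest in cluster 2, at 1025 CPM, and was at 438 CPM in cluster 1 and at 291 CPM in the pluripotent-like cluster 0. Of its counts, cluster 1 held 39.2%, cluster 2 36.0% and cluster 0 24.8%. Pool 1 supplied 55 of the 62 cluster 0 cells, whereas pool 2 supplied 30 of the 34 cluster 2 cells. Within pool 2, Igfbp2 was at 1228 CPM in cluster 2, at 528 CPM in cluster 1 and at 556 CPM in the 7 cells of cluster 0. Igf1 was highest in the macrophage-like cells, at 404 CPM in 85.7% of 14 cells, which held 50.0% of all CPCC Igf1 counts and came from pool 2 alone. In cluster 1 Igf1 was at 3.28 CPM in the 19 cells of pool 1 and at 165 CPM in the 36 of pool 2. The pool difference in Igf1 was thus also found within cluster 1. The macrophage-like cells had Igfbp2 at 2.12 CPM and Igfbp4 at 183 CPM.

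Igf2r and Airn had their highest levels in different CPCC clusters. Igf2r was at 4.60 and 7.13 CPM in clusters 0 and 2, found in 64.5% and 47.1% of cells, and at 1.19 CPM in cluster 1, found in 10.9%. Within pool 2 it was at 5.22 CPM in cluster 0 and 4.10 CPM in cluster 2, so the higher level of cluster 2 rested on its 4 cells of pool 1. Airn was at 1.53 and 2.64 CPM in clusters 0 and 2, found in 8.06% and 14.7% of cells, and at 37.1 CPM in cluster 1, found in 72.7% of its cells. Airn was alike in the pools of cluster 1, at 35.2 and 38.1 CPM, and Igf2r was at 3.19 CPM in pool 1 and 0.16 CPM in pool 2. In the macrophage-like cells Igf2r was at 0 and Airn at 0.03 CPM, and in cluster 4 both were at 0. On the per-kilobase scale Airn was at 4.08 and Igf2r at 0.33 CPM per kb over all CPCC cells.

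**Figure D5:**
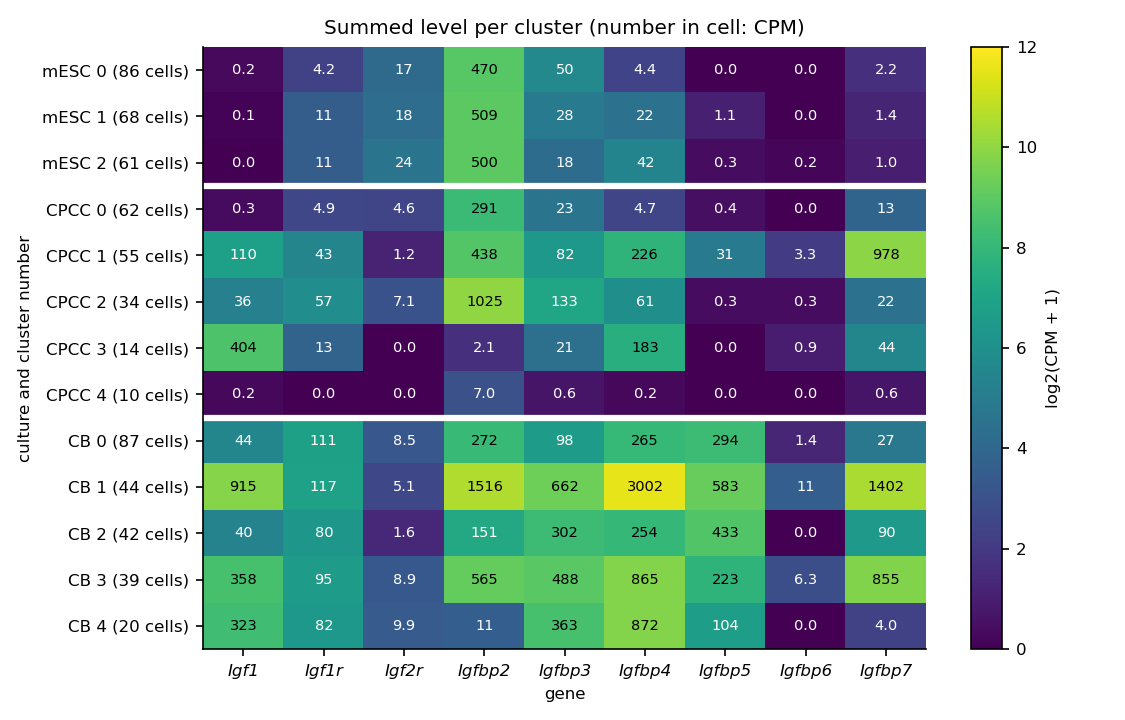
Summed CPM of each gene in every cluster of the 3 cultures, coloured by log2(CPM + 1), with clusters numbered by size within a culture. Igfbp2 is at 470 to 509 CPM in the 3 mESC clusters, Igfbp7 reaches 978 CPM in CPCC cluster 1, and Igfbp4 reaches 3002 CPM in CB cluster 1.

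The 3 mESC clusters all had 10 of 10 pluripotency markers in most cells and differed little in Igfbp2, at 470, 509 and 500 CPM. Igfbp4 was at 4.40, 21.7 and 41.8 CPM and Igfbp3 at 49.5, 28.5 and 17.7 CPM in clusters 0, 1 and 2. Over these clusters the order of Igfbp3 was opposite to that of Igfbp4, while over 207 single cells their rho was -0.10. Of the 86 cells of cluster 0, 83 came from mESC pool 1, so cluster and pool cannot be told apart there. In cluster 1, pool 2 had Igfbp4 at 5.59 CPM and Igfbp3 at 41.4 CPM, and pool 3 had them at 36.1 and 19.5 CPM. In cluster 2 both were lower in pool 3, Igfbp4 at 29.2 against 43.9 CPM in pool 2 and Igfbp3 at 10.6 against 20.8 CPM.

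Pairs of members were compared over the CB cells with at least 10000 counts as a description, since cells of a culture share libraries and depth. Igf1 and Igfbp4 had the highest rank correlation, with a Spearman's rho of 0.61 over 223 cells, followed by Igfbp4 and Igfbp7 (0.50) and Igf1 and Igfbp7 (0.48). These values take all pools together, and ranks within pools were not used for the pairs. In CB pool 2 fewer cells had Igf1 (30.8%) and Igfbp7 (14.1%) than in the other pools. Of the 124 CB cells with Igf1, 96.0% also had Igfbp4, as did 80.8% of the 99 without it. Igfbp7 was found in 75.0% of the cells with Igf1 and 37.4% of those without. Igf1 and Igf1r had a rho of 0.01, and the receptor was found in 92.7% of the cells with Igf1 and 80.8% of those without. In CPCC the rho was 0.36 for Igf1 with Igfbp4 and 0.49 for Igfbp4 with Igfbp7 over 174 cells.

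The genes whose levels most resembled each member were found by rank correlation with 9917 genes over the 223 CB cells. For Igfbp7 these were the fibrillar collagen genes Col1a1 (0.75), Col3a1 (0.74) and Col1a2 (0.74). For Igfbp4 they were the matrix protease gene Mmp2 (0.65), Fstl1 (0.64) and Ppic (0.63), and for Igf1 they were Mmp2 (0.60), Sparc (0.60) and Lgals1 (0.59). With ranks formed within each pool, the first of these was 0.61 for Igfbp7 with Col1a1, 0.61 for Igfbp4 with Mmp2 and 0.54 for Igf1 with Mmp2. Likeness was weaker for the others: Igfbp3 with Mgp (0.39), Prrx1 and Nfic (0.37 each), Igfbp2 with Nkd1 (0.43), Fbln5 and Pltp (0.42 each), and Igfbp5 with Sulf1 (0.32), Glis2 (0.30) and Wfdc2 (0.27). Igf1r was at most 0.29 (Auts2, Nexn, Srsf5), and none of the 3 genes nearest to Igfbp2 stayed among its nearest within pools. For Igf2r, taken in mESC, the nearest gene was at 0.31 over 207 cells (Gm10263, Jcad, Gpx4-ps1), and 1 of these 3 (Jcad) stayed among its nearest within pools. Igfbp6 was in too few cells.

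A list of 31 further genes of the pathway was followed with the same rule, of which 24 were listed in mESC, 28 in CPCC and 30 in CB. In CPCC over mESC, 5 of the 19 genes with at least 5 CPM in either culture were called higher and 1 lower, against 14.4% and 7.21% of all genes. In CB over mESC, 12 of 21 were called higher and 1 lower, against 25.3% and 14.4%, and in CB over CPCC 6 of 22 were higher and 1 lower, against 12.8% and 5.96%. The median log2 ratio of these genes was 0.40, 1.27 and 0.96, below that of the 8 members.

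Among the ligands, Igf2 was at 0.037 CPM in mESC, 1.74 in CPCC and 129 in CB, where its pools were at 42.3, 3.09 and 282 CPM. It was called higher in CB over mESC (log2 ratio 6.97), but 1 cell held 58.1% of the CB counts and the level without it was 54.4 CPM. Among the receptors, the insulin receptor Insr was at 12.4, 14.7 and 59.8 CPM, and Lrp1, an endocytic receptor, at 15.4, 39.2 and 75.4 CPM. Both were called higher in CB over mESC. The stanniocalcins Stc1 and Stc2, inhibitors of the Pappa proteases, were at 16.9 and 10.6 CPM in CB, where Stc1 was called higher over mESC and Stc2 over CPCC. Pappa itself was listed in CPCC and CB only, at 12.5 and 14.6 CPM, and no ratio was called.

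Among the adaptors, Irs2, a docking protein of the IGF1 and insulin receptors, was called higher in the 3 pairs, at 7.14, 35.3 and 77.7 CPM. Grb14, an inhibitory adaptor, was at 2.66, 9.24 and 19.3 CPM and was called higher in both cultures over mESC. Grb10, a related imprinted inhibitor, went the other way, at 11.8, 3.91 and 1.61 CPM, and was called lower in both. Shc1 was called higher in CB over mESC, with 34.1 and 71.9 CPM. In the kinase branch, the regulatory subunit Pik3r1 was at 9.87, 22.6 and 79.0 CPM and was called higher in the 3 pairs, although the call in CPCC over mESC (log2 ratio 1.12) was kept under 6 of 13 alternatives. Akt1 was at 12.3, 63.5 and 65.6 CPM and the transcription factor Foxo1 at 13.8, 34.2 and 54.6 CPM, both called higher over mESC in CPCC and CB. Pik3ca was called higher in CB over mESC (log2 ratio 1.27), and Akt2 and Foxo3 in CB over CPCC (1.11 and 1.61). The calls of Irs2 and Akt2 in CB over CPCC were each kept under 9 of 13 alternatives. Pik3cb, a catalytic subunit, was called lower in CB over CPCC (-1.62), at 7.28 against 24.5 CPM. The calls in this branch were thus not all in the same direction.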

How the data were processed

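Single cells were captured on the Fluidigm C1 microfluidic system, full-length cDNA was made with SMART-Seq v4 chemistry, and libraries were indexed with Nextera XT. The authors aligned reads to GRCm38 with STAR 2.7 in Partek Flow and made a table of gene counts for each culture. The deposited mESC and CB values were estimated counts, with 26.4% (mESC) and 27.4% (CB) of nonzero entries off a whole number by over 0.001, and the deposited CPCC values were whole counts. How reads were assigned to genes, and whether strand was used, is not given in the sources used here. In CPCC, 2 columns with no values could not be mapped, and 208 rows with no gene and 23 symbols turned into dates were left out (0.139% of counts).

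Counts were summed over cells and scaled to CPM. Differences are on the log2(CPM + 1) scale, where those of low genes are understated. The comparisons used no statistical test, since there was 1 sample per group. The main calls used no rounding, and values were rounded only for thinning and Poisson intervals. Intervals at 95% were exact Poisson for summed counts and Clopper-Pearson for shares of cells. They take reads (Poisson) or cells (Clopper-Pearson) as independent draws. The libraries had no molecular identifiers, so the Poisson intervals do not cover error from amplification. Neither kind covers differences between pools or clones. All cells were kept unless stated. Clusters were made with Seurat 5.3.0 (resolution 0.6, 10 principal components, counts regressed out), without a doublet caller, and named only from listed markers. Genes named outside the members were the pathway genes called in any pair (1 of them is not reported here), the 5 leading genes of each cluster, and for each member found in at least 25% of cells the 3 genes nearest by Spearman's rho in the culture where its CPM was highest. Airn, Pappa and single top genes were named after their values were seen. The members, the lists and the call rule were chosen with earlier results of these data known. Alternatives used edgeR 4.0.16 TMM factors and DESeq2 1.42.0 size factors on the summed counts.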

Additional observations from a re-analysis of the deposited data

How the results depend on the processing

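Of 27 log2 ratios of members, 5 had the other sign under 1 or more alternatives, none of them a ratio called with the main settings: Igfbp2 in the 3 pairs, Igfbp3 in CPCC over mESC and Igfbp7 in CB over CPCC. With a pseudocount of 10 CPM the number of members called lower in CB over mESC was 0 in place of 1. The other counts of called members stayed within 1.5 times of their values. With 1 pool left out in turn, 3 to 6 members were called higher in CPCC over mESC, 6 to 7 in CB over mESC and 4 to 6 in CB over CPCC. Without CPCC pool 2, Igf1 was not called over mESC. Without CB pool 3, Igf2r was not called in CB over mESC (-0.96) and Igfbp2 was called lower (-1.20), so the count of 1 lower then stood for another gene. No other called member lost its call under the alternatives run. Of 108 comparisons of the cluster with the highest level under other clustering settings, 9 kept under 50% of its cells (Igf1r and Igf2r in CB, Igf2r, Igfbp5 and Igfbp6 in CPCC), and in 7 all its cells lay in a merged cluster over 2 times as large. No paired analysis was possible because each culture was 1 sample and no test was made. The rarest members, Igf1 in mESC and Igfbp6, rest on few cells, and the part of depth in this was not tested. Pool, clone and capture chip cannot be told apart from each other in these columns.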
